A study of Mus musculus with 12 samples.

Results

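The 10 genes described here are the AP-1 subunit genes Fos, Fosb, Fosl2, Jun, Junb, Jund and Atf3 and the immediate early genes Egr1, Ier2 and Ier3. They were taken by symbol from a table of 54227 gene symbols measured in mouse liver cells, and all 10 were among the 16128 genes that passed the filter on low values (a mean normalised count of at least 10). The mice were C57Bl/6 animals with a Sox9EGFP transgene, in which regulatory sequence of Sox9, a transcription factor gene of bile duct cells, drives the green fluorescent protein EGFP. They were fasted for 16 h, the livers were digested to single cells, and the cells were sorted by EGFP into a negative population (neg) and 3 populations of rising fluorescence named sublow (sub), low and high. Each population was profiled by total RNA sequencing in 3 libraries of 12000 cells. All 12 libraries, neg included, therefore share the transgene, the fast and the digestion. The labels give no age, and they do not say whether the libraries of a population came from separate animals, so p-values measure only the spread between these libraries, which may be technical. The reporter sets the populations apart by fluorescence and not by a treatment, and a gate can hold several cell types.

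AP-1 is a dimer of basic leucine zipper proteins. Jun proteins pair with each other or with Fos proteins, while Fos proteins need a Jun or another partner, and the dimers bind the DNA sequence TGACTCA or close relatives of it. Immediate early genes are switched on within minutes of growth factor, cytokine or stress signals through factors already present in the cell, such as SRF with its Elk partners and CREB, and their mRNAs are short-lived. In liver they are best known from the start of regeneration after partial hepatectomy. Tissue digestion is another known stimulus; all 12 libraries came from digested liver, and its part in the levels below was not tested.

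Promoter sequences are shown for Fos, Fosb, Jun and Atf3, because these were the 4 genes of the 10 that passed the test between sub and neg. Each line holds the 250 bases before the RefSeq start of the gene (GRCm38.p6), 5′ to 3′ on the gene's strand. Capitals mark matches to TGACGT (the core of the cAMP response element, CRE), TGACATCA (an AP-1-like site), TGACGC (a CRE with its last base changed) or TATAAA (the TATA box), searched on both strands. The windows are chr12:85473640-85473889 on the plus strand for Fos, and on the minus strand chr7:19310046-19310295 for Fosb, chr4:95052223-95052472 for Jun and chr1:191183334-191183583 for Atf3.

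Fos: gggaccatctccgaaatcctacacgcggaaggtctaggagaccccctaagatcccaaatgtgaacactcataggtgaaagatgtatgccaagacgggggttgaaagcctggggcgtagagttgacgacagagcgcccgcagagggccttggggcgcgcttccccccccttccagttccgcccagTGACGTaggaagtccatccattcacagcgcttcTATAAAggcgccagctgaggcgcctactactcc

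Fosb: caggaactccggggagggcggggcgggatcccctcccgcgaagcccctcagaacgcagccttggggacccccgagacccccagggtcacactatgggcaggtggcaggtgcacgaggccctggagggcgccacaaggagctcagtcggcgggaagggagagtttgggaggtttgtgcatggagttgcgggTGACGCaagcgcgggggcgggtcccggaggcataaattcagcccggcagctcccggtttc

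Jun: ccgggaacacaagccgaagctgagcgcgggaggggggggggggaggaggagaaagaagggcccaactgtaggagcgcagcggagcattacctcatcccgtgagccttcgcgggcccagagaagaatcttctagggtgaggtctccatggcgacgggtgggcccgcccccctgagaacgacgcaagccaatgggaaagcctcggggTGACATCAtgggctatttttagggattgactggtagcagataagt

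Atf3: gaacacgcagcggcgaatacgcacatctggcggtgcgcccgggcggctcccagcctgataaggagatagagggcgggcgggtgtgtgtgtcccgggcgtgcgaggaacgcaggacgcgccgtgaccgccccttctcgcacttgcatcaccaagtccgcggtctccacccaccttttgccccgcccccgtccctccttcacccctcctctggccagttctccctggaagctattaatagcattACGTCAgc

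In the Fos window TGACGT starts 66 bases before the transcription start and TATAAA 33 bases before it. The Atf3 window carries the CRE core on the other strand, printed as ACGTCA, 8 bases before the start. In the Jun window TGACATCA starts 45 bases before the start, and in the Fosb window TGACGC starts 60 bases before it. RefSeq promoters were found for 8 of the 10 genes, the exceptions being Egr1 and Ier2. Among those 8, TGACGT occurred in 2 (Fos and Atf3), TGACATCA in 1 (Jun), TGACGC in 2 (Fosb and Junb) and TATAAA in 1 (Fos). Of 27025 promoters of the same length, 6.56% held TGACGT, 3.02% TGACATCA, 6.14% TGACGC and 13% TATAAA. Among the 10621 promoters of tested genes these shares were 9.9%, 1.5%, 9.84% and 7.43%. The AP-1 consensus TGACTCA and the CArG box, the binding sequence of SRF, occurred in none of the 8 windows. They occurred in 4.43% and 1.4% of all promoters and in 3.33% and 1.23% of those of tested genes. Sequence further upstream was not searched, and Egr1 and Ier2 had no window, so the absence of both motifs holds for the 8 windows only. Common promoter boxes were also searched: GGGCGG was in 6 of the 8 (32.9% of all promoters, 56.7% of those of tested genes) and CCAAT in 3 (34.5% and 36%). The motifs were chosen after the sequences were seen, matches to different motifs did not overlap in these windows, and a match describes letters and not a bound site. RefSeq starts Atf3 inside the longer gene of the GENCODE M21 annotation, whose own start lies at position 191218039, so the printed window is not the start of that longer gene. The Fosl2 window lies wholly inside exons of Fosl2 in GENCODE M21, and the Jund window ends before RefSeq position 70697739, while GENCODE starts Jund at 70698949; both count among the 8.

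The 10 genes lie at separate loci on 8 chromosomes. Jun (chromosome 4, 95049034 to 95052222, minus strand), Jund (chromosome 8, 70698949 to 70700616, plus strand) and Ier2 (chromosome 8, 84661331 to 84662852, minus strand) are single-exon genes in GENCODE M21 on GRCm38. Fos lies on chromosome 12 from 85473890 to 85477273 and Fosb on chromosome 7 from 19302696 to 19310051, and Atf3 on chromosome 1 from 191170296 to 191218039. Jun overlaps exons of Junos on the opposite strand, Junb those of Prdx2 and Jund those of Gm11175. The strand setting of the counting is not given in the sources used here, and overlapping reads could have been assigned either way. The mean normalised counts of Junos (39.7), Prdx2 (365) and Gm11175 (0) were far below those of Jun, Junb and Jund. AU-rich elements with the pentamer ATTTA mark many short-lived mRNAs. The longest annotated 3′ UTR of 9 of the 10 genes held at least 1 ATTTA, with 8 in Fosl2, 5 in Ier3, 4 each in Fos and Jun and none in Ier2; 26.4% of tested genes held none. The median density was 2.20 per kb over the 10 genes and 1.41 per kb over 12254 tested genes with a 3′ UTR of at least 100 bases; 5 of the 10 exceeded 2 per kb, as did 36.4% of the tested genes.

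The libraries held 8775387 to 15535588 reads each. Sox9 had a mean normalised count of 0.23 in neg, and of 4865, 12097 and 13087 with rising EGFP. Markers of the cell types a liver digest can hold also moved across the gates. The summed normalised count of 10 endothelial markers was 146907 to 208731 in neg, 40638 to 52945 in sub, 1008 to 2699 in low and 631 to 1520 in high. For 10 biliary markers it was 21.2 to 412 in neg, 20398 to 36469 in sub, 69955 to 96588 in low and 64026 to 70446 in high. The 10 hepatocyte markers summed to 395 to 1052 in neg, 6385 to 11436 in sub, 15967 to 23780 in low and 20048 to 24967 in high. Alb and Ahsg made up most of that sum in high (means of 11927 and 5268). The means of Apob, Ttr, Trf and Hnf4a were 21.6, 0.32, 192 and 0 in neg and 1695, 1289, 2242 and 792 in high. Apoa1 went the other way (411 in neg, 53.5 in high). Serpina1a and Cps1 were at 0 in all 3 high libraries, and at means of 0 and 6.91 in neg. Fgb had a mean of 0 in neg and 15.8 in high. Stellate markers reached 22309 to 39588 in neg and 28558 to 36857 in sub, and at most 2704 in low and 2789 in high. Kupffer cell and lymphocyte markers summed to at most 1526 and 1108 in any library, and the T cell gene Cd3e was at 0 in all 12. The cell types of the gates thus differed together with the genes below, and the part this has in each difference was not tested. In bulk libraries, fewer cells of a type and less RNA per cell cannot be told apart.

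All values below are normalised counts, that is, reads divided by 1 size factor per library. The 10 genes together took 0.860 ± 0.079% (SD, n = 3) of the summed normalised counts in neg. This share was 1.48 ± 0.19% for sub, 1.96 ± 0.10% for low and 2.15 ± 0.06% for high. Neg libraries ranged from 0.769% to 0.911% and high libraries from 2.09% to 2.20%. Every sub, low and high library lay above every neg library.

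**Figure D1:**
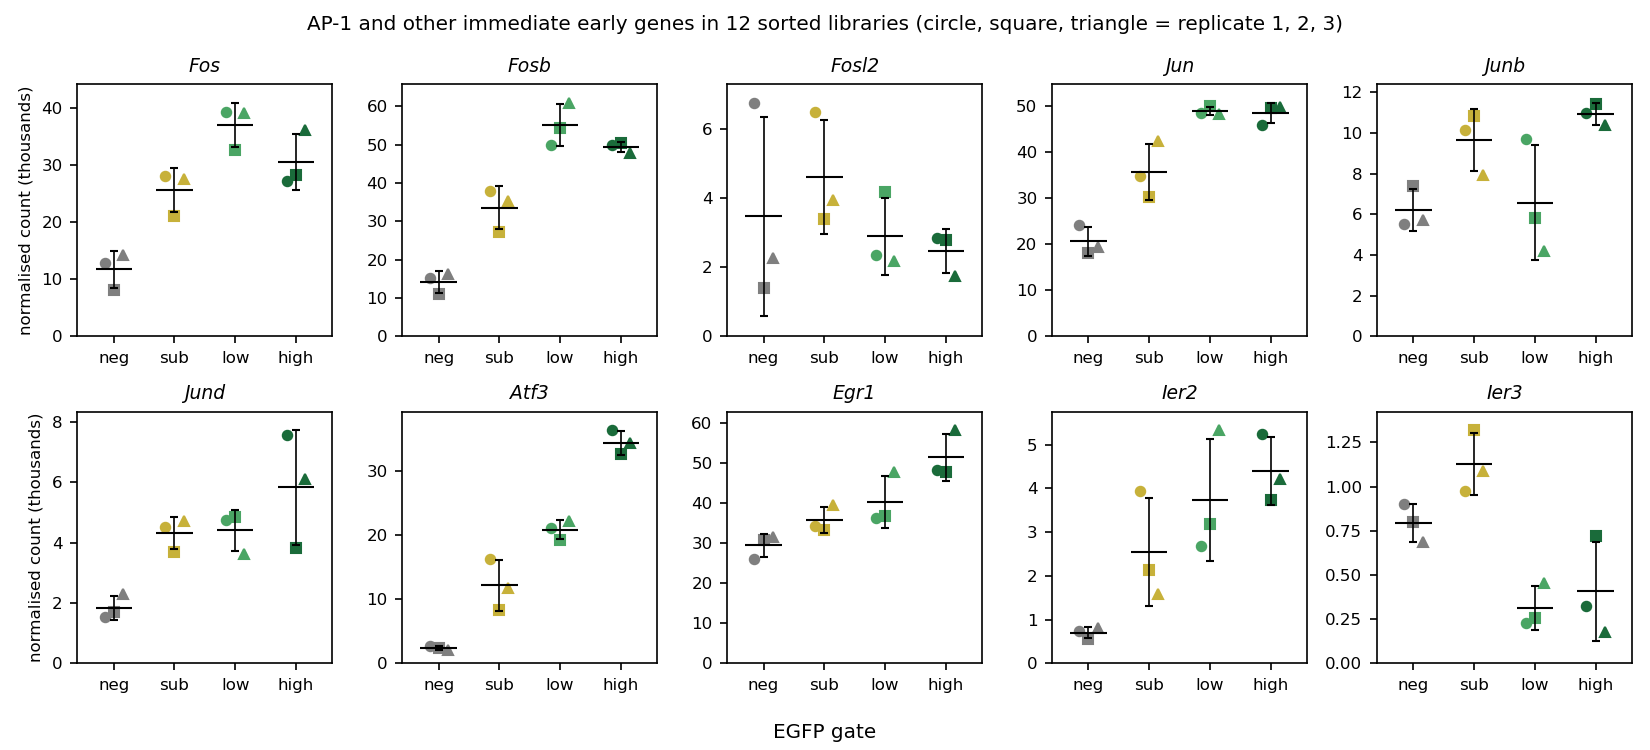
Normalised counts (linear vertical axes from 0, a separate scale per gene, ticks in units as labelled) of the 10 genes in the 12 libraries, by population (neg, sub, low, high); points are single libraries, marked by replicate, horizontal lines are means of 3 and error bars are SD. Fos, Fosb, Jun and Atf3 lie lowest in neg, Egr1 differs less between populations, and Ier3 is low in the low and high populations.

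Fos and Fosb encode the Fos subunits with strong transactivation domains. Fos stood at 12796, 8147 and 14310 in the 3 neg libraries, at 28021, 21106 and 27520 in sub, at 39323, 32533 and 39009 in low, and at 27226, 28288 and 36116 in high. Neg lay below all other libraries, sub lay below low, and low and high overlapped. Fos rose by 1.15 ± 0.17 on the log2 scale from neg to sub (SE, limma, adjusted p = 0.00058) and was 1.69 ± 0.17 higher in low than in neg (adjusted p = 3.19e-06). The further difference of 0.54 ± 0.17 between low and sub did not pass (adjusted p = 0.192). Without sub 1 or without sub 3, the difference between sub and neg did not pass either.

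Fosb followed the same order of populations. Its values were 15230, 11057 and 16372 in neg, 37995, 27271 and 35252 in sub, 49958, 54367 and 60788 in low, and 49794, 50279 and 47843 in high. Sub lay above neg without overlap, and low and high both lay above sub. Its rank among all genes of a library by normalised count, which is not corrected for length, went from 45 to 88 in neg to 10 to 12 in low. Of the 10 genes Fosb alone passed between low and sub, with a log2 difference of 0.73 ± 0.13 (limma, adjusted p = 0.0114). That call held in 1 of the 12 fits that left out a library, and the adjusted p ranged up to 0.827 over all alternatives. The rise from neg to sub, by 1.24 ± 0.13 (adjusted p = 8.33e-06), passed in 12 of those 12 fits. It was lost without a variance trend, in the fit of 2 populations and in DESeq2 on 10 libraries.

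Fosl2 encodes Fra-2, a Fos protein that lacks the strong transactivation domain of Fos. It was spread widely within neg, with 6761, 1399 and 2280, and stood at 6492, 3407 and 3964 in sub, 2359, 4185 and 2172 in low, and 2862, 2806 and 1749 in high. Neg 1 lay above every other library of the 12. All 6 contrasts of Fosl2 failed the test, with adjusted p between 0.615 and 1. Its high libraries lay below its sub libraries without overlap, at a log2 difference of -0.88 ± 0.53. Per kilobase of exon, Fosl2 made up 4.49 ± 3.16% of the 3 Fos family genes in neg (2.63% to 8.14%) and 1.23 ± 0.39% in high (0.779% to 1.49%). The share of Fosb was 30.2 ± 2.4% in neg and 37.6 ± 4.0% in high (SD, n = 3 each).

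Jun encodes the subunit that pairs with every Fos protein and with Atf3. Its values were 24240, 18204 and 19501 in neg, 34749, 30245 and 42327 in sub, 48448, 49947 and 48392 in low, and 45911, 49684 and 49739 in high. Low and high occupied the same narrow range, above every sub library, and sub lay above every neg library. Jun rose by 0.79 ± 0.11 from neg to sub (limma, adjusted p = 0.00024). It was 1.26 ± 0.11 higher in low than in neg and 1.24 ± 0.11 higher in high than in neg (adjusted p = 3.65e-07 and 3.64e-07). Between sub and low the difference of 0.47 ± 0.11 had an adjusted p of 0.0521, and high against sub had 0.0531. Both passed with a pseudocount of 5 and with a replicate block, the first also in edgeR and the second also with equal totals.

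Junb, a Jun protein that often opposes Jun at its targets, differed from Jun in its order of populations. It stood at 5514, 7390 and 5736 in neg, 10170, 10840 and 7955 in sub, 9711, 5815 and 4216 in low, and 10971, 11447 and 10374 in high. The high libraries lay above all neg and low libraries, and low spanned the widest range, from below neg to the level of sub. No Junb contrast passed in limma: the nearest was high against neg, with 0.83 ± 0.27 (adjusted p = 0.0923), and high against low gave 0.82 ± 0.27 (adjusted p = 1). Per kilobase, Junb was 26.4 ± 5.3% (SD) of the 3 Jun family genes in neg and 23.6 ± 5.6% in sub. It was 13.5 ± 4.9% in low and 20.3 ± 1.4% in high, and Jun was 73.9 ± 5.4% in low against 62.0% to 64.9% elsewhere (means of 3).

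Jund encodes a Jun protein that is usually present in resting cells. It stood at 1550, 1697 and 2300 in neg, 4529, 3696 and 4707 in sub, 4753, 4835 and 3624 in low, and 7564, 3805 and 6099 in high. Neg lay below all other libraries and the 3 EGFP-positive populations overlapped. Jund was 1.62 ± 0.37 higher in high than in neg (limma, adjusted p = 0.0139), a call that was lost without high 1 or without high 3. The differences of sub and low from neg, 1.23 ± 0.37 and 1.26 ± 0.37, had adjusted p of 0.16 and 0.0591. The second passed in 5 of 24 alternatives, among them without neg 3 and without high 2.

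Atf3, a stress-induced factor of the ATF/CREB family that pairs with Jun proteins and can repress its targets, had the largest differences from neg of the 10 genes. Its values were 2688, 2404 and 2049 in neg, 16280, 8384 and 11786 in sub, 21046, 19279 and 22120 in low, and 36297, 32550 and 34226 in high. The 4 populations did not overlap at all and followed the order of EGFP. Its mean was 5.10 times the neg mean in sub, 8.74 times in low and 14.4 times in high, and its rank in a library went from 711 to 1042 in neg to 20 to 24 in high. Atf3 rose by 2.31 ± 0.20 from neg to sub (limma, adjusted p = 7.96e-07) and by 3.86 ± 0.20 from neg to high (adjusted p = 3.32e-10). It was also higher in high than in sub, by 1.55 ± 0.20 (adjusted p = 0.00054), and these 3 calls passed in all 12 fits that left out a library. Neighbouring steps above sub did not pass: low against sub gave 0.83 ± 0.20 (adjusted p = 0.0678) and high against low 0.72 ± 0.20 (adjusted p = 0.794).

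Egr1 encodes a zinc finger factor outside AP-1 that is induced by the same signals through SRF. It was already high in neg, with 26170, 30822 and 31568, and stood at 34447, 33431 and 39529 in sub, 36304, 36762 and 47931 in low, and 48410, 47853 and 58305 in high. Its rank lay between 11 and 24 in all 12 libraries. High was 0.80 ± 0.11 above neg (limma, adjusted p = 9.71e-05), which passed in all 12 fits that left out a library. The smaller differences of low from neg, 0.44 ± 0.11 (adjusted p = 0.0217), and of high from sub, 0.52 ± 0.11 (adjusted p = 0.0249), passed in 0 and 1 of those 12 fits.

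Ier2 and Ier3 encode small immediate early response proteins and are named alike without being close relatives; Ier3 is known for a part in cell survival. Ier2 stood at 746, 559 and 812 in neg, 3946, 2126 and 1580 in sub, 2689, 3188 and 5334 in low, and 5251, 3734 and 4227 in high. Neg lay below every other library. Ier2 was 2.36 ± 0.51 higher in low and 2.64 ± 0.51 higher in high than in neg (limma, adjusted p = 0.00965 and 0.0039), and the difference of 1.76 ± 0.51 between sub and neg had an adjusted p of 0.136. Ier3 had another pattern, with 900, 797 and 685 in neg, 975, 1319 and 1090 in sub, 229, 257 and 456 in low, and 327, 720 and 176 in high. Every low library lay below every neg and sub library. The log2 differences of Ier3, -1.90 ± 1.01 for low against sub and -1.40 ± 1.01 for low against neg, did not pass (limma, adjusted p = 0.54 and 0.549).

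Counted over the contrasts, the genes of the set that passed were all higher in the brighter population. Between sub and neg, 4 of the 10 rose (Fos, Fosb, Jun, Atf3) where 1.04% of all tested genes rose and 0.149% fell. The median log2 difference was 0.97 over the 10 and 0.00 over all tested genes. Sub lay above neg without overlap for 9 of the 10, all but Fosl2, as it did for 4.69% of tested genes, and below neg for none of the 10 (4.99% of tested genes). Between low and neg, 6 rose (Fos, Fosb, Jun, Atf3, Egr1, Ier2) against a background of 2.55% higher and 2.15% lower. Low lay above neg without overlap for 7 of the 10 (8.38% of tested genes) and below it for Ier3 alone (8.52%). Between high and neg, 7 rose (those 6 and Jund) against 2.44% higher and 2.25% lower, and 8 of the 10 lay above neg without overlap and none below (10.2% and 8.61% of tested genes). The 3 comparisons with neg share the neg libraries, so their counts are not independent.

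Differences among the EGFP-positive populations were fewer. Between low and sub 1 gene of the 10 rose (0.13% of tested genes rose and 0.614% fell). Low lay above sub without overlap for 4 of the 10, Fos, Fosb, Jun and Atf3, and below it for Ier3, against 5.75% and 5.99% of tested genes. Between high and sub 3 rose (Fosb, Atf3, Egr1), where 0.118% of tested genes rose and 0.868% fell. High lay above sub without overlap for 4 of the 10, these 3 and Jun, and below it for Fosl2 and Ier3, against 7.2% and 5.91% of tested genes. The Fosb call between high and sub was lost in each of the 12 fits that left out a library.

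The median of all tested genes was itself 0.20 higher in high than in sub and 0.13 higher than in neg, against 0.42 and 1.32 over the 10 genes. Under quantile normalisation the all-gene medians were 0.04 and 0.00. Egr1 then passed neither against sub nor against neg, and Fosb did not pass against sub. High against low gave 0 calls among the 10 in limma, with 0.0% of tested genes called in either direction. Of the 10, 3 (Junb, Atf3, Egr1) had an unadjusted p under 0.05, and edgeR and DESeq2 on 10 libraries called 0 of the 10 each, and 74 and 678 of all genes. High lay above low without overlap for Junb and Atf3 and below it for none, against 4.06% and 3.28% of tested genes. A moderated F test over the 4 populations passed for 7 of the 10, the exceptions being Fosl2, Junb and Ier3, and for 4.23% of tested genes.

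**Figure D2:**
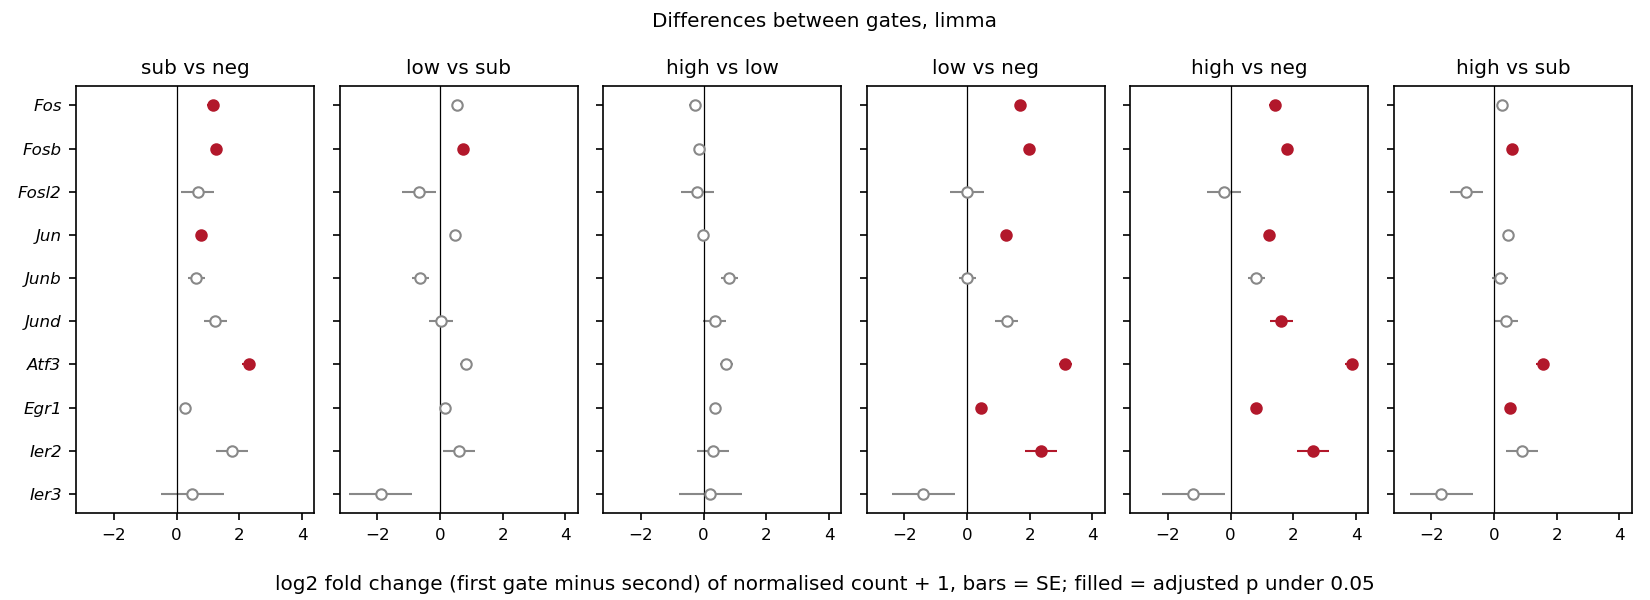
Log2 differences with standard errors (horizontal axis, limma on log2(normalised count + 1), n = 3 libraries per population) of the 10 genes in the 6 contrasts between populations; filled points passed an adjusted p of 0.05. Atf3 has the largest differences from neg (2.31, 3.13 and 3.86 with rising EGFP), and no point is filled for high against low.

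Whether these differences passed depended on the variance model, while the fitted log2 differences are the same with and without it. Without a trend of variance on level in limma, 1 of the 21 calls over the 6 contrasts was kept, Atf3 in high against neg, and fits of only the 2 populations compared kept 6: Fosb and Atf3 in low against neg, and Fosb, Jun, Atf3 and Ier2 in high against neg. Atf3 in low against neg, at 3.13, had an adjusted p of 0.0809 without the trend.

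Levels of different genes were compared per kilobase of exon, as normalised counts divided by the exon length in GENCODE M21. That length joins the exons of all annotated transcripts of a gene. It was 9680 bases for Fosl2, 6243 for Fosb and 4484 for Egr1, against 2352 for Fos and 2154 for Atf3. A gene whose expressed transcripts are shorter than this is understated, which was not tested. The order of genes below and the family shares above depend on these lengths. In neg the order was Egr1, Jun, Fos, Junb, Fosb, Jund, Atf3, Ier3, Ier2 and Fosl2. Egr1 and Jun stood at 6583 ± 652 and 6475 ± 996 per kb there, and Atf3 seventh at 1105 ± 149 (SD, n = 3). Egr1, Jun and Fos overlapped as neighbours in that order, and Fos did not overlap Junb. In high, Atf3 led with 15951 ± 871 per kb, followed by Jun with 15191 ± 688, Fos with 12986 ± 2064, Egr1 with 11490 ± 1311 and Fosb with 7898 ± 207. The first 4 of these overlapped with their neighbours, while Egr1 and Fosb did not overlap. In low the first 2 places were held by Fos, at 15712 ± 1630, and Jun, at 15343 ± 277, which overlapped. Fosl2 came last in neg, sub and high and ninth in low, with means of 255 to 477 per kb.

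**Figure D3:**
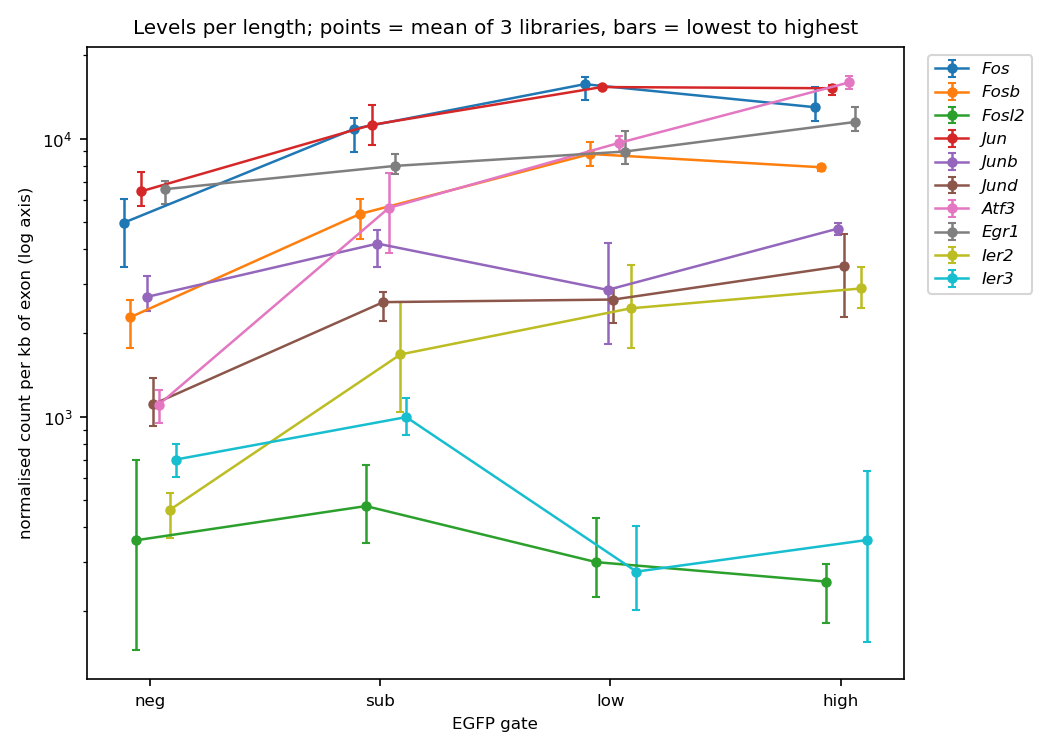
Normalised counts per kilobase of exon (log vertical axis) of the 10 genes in the 4 populations; points joined by lines are means of 3 libraries and bars run from the lowest to the highest library. Atf3 goes from the seventh place in neg (1105) to the first in high (15951), and Egr1 from the first (6583) to the fourth (11490). These places depend on the exon lengths used.

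The genes whose pattern was most like that of a member were sought among 9613 other genes with a mean of at least 100, by Pearson correlation of log2(normalised count + 1) over the 12 libraries. The libraries share 4 populations, so a likeness largely reflects the same order of populations and carries no p. Nearest to Fos was Fosb (r = 0.969), then Dsp, a desmosome gene (0.954), Gm47283 (0.953), Actb, cytoplasmic actin (0.950), and Clu, clusterin (0.948). Jun was nearest to Cyp2j6 (0.988), Fosb (0.971), Cldn3, a tight junction claudin (0.968), Itgb8, an integrin (0.966), and Akap13 (0.963). Atf3 was nearest to Klf6, an immediate early zinc finger factor (0.987), Chka, choline kinase (0.985), Itgb8 (0.973), Rap1gap (0.971) and Nhsl1 (0.971). The values for Egr1 were lower, with Wnt4 (0.885), Gcfc2 (0.884), Nhsl1 (0.871), F11r, a junctional adhesion molecule (0.871), and Slc11a2, an iron transporter (0.866). Within the set, Fos, Fosb, Jun and Atf3 correlated with each other at 0.892 to 0.971. Ier2 reached much the same values with these 4, from 0.882 to 0.949. Jund lay between 0.834 and 0.892 with them and Egr1 between 0.703 and 0.841. Junb lay between 0.209 and 0.452 with all 4, Fosl2 between -0.03 and 0.07, and Ier3 between -0.57 and -0.55.

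Other basic leucine zipper genes of the AP-1 circle moved both ways. Of 14 listed, 11 passed the filter, and 3 rose (Fosl1, Maff, Mafk) and 1 fell (Maf) both in low and in high against neg. Over all tested genes 2.55% rose and 2.15% fell in low, and 2.44% and 2.25% in high. Maff, a small Maf protein without a transactivation domain, stood at 10.4, 0 and 57.9 in neg, 541, 899 and 1590 in sub, 744, 621 and 1774 in low, and 3861, 3512 and 3047 in high. It rose in high against neg by 8.63 ± 1.38 (limma, adjusted p = 0.00066), a size that depends on the pseudocount because neg 2 was at 0. Maf went the opposite way, with 27243, 20269 and 27449 in neg, 6062 to 8293 in sub, 841 to 1394 in low and 877 to 1246 in high. Maf fell by 1.83 ± 0.36 from neg to sub (adjusted p = 0.0107) and fell by 2.75 ± 0.36 from sub to low (adjusted p = 0.00103), which passed in all 12 fits that left out a library. Both of these Maf calls were lost without a variance trend and in fits of 2 populations. The endothelial marker sums given above fall in the same order, and their part in the fall of Maf was not tested. Fosl1, which encodes the Fos protein Fra-1, stood at 0.69, 0 and 682 in neg, 2458 to 5449 in low and 1880 to 2091 in high. Its call in high against neg (limma, adjusted p = 0.0152) passed in 1 of the 12 fits that left out a library. That in low against neg (adjusted p = 0.00786) passed in 2. Both were lost without a variance trend, in fits of 2 populations, in DESeq2 and in limma on 10 libraries. Mafk, another small Maf gene, named after its values were seen, stood at 1258, 349 and 1100 in neg, 2352 to 4134 in low and 2741 to 4796 in high. It rose by 2.11 ± 0.55 in low and 2.27 ± 0.55 in high (limma, adjusted p = 0.0328 and 0.0206), calls that passed in 2 and 8 of the 12 fits and in neither edgeR nor DESeq2.

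Among 15 tested of 16 other immediate early transcription factor genes, Klf6 was called higher in sub, low and high against neg. Its values were 981, 1206 and 893 in neg, 2750 to 7618 in sub, 9940 to 10447 in low and 10762 to 12692 in high, a rise of 3.56 ± 0.34 from neg to high (limma, adjusted p = 1.48e-06). Klf2 and Klf4, factors known for high expression in endothelium, were lower, as the endothelial marker sums were: Klf4 went from 13018 to 17280 in neg to 2241 to 5643 in high, a log2 difference of -2.11 ± 0.33 (adjusted p = 0.00044), and Klf2 from 2311 to 4006 in neg to 85.5 to 467 in low, a log2 difference of -3.90 ± 0.87 (adjusted p = 0.012). Without a variance trend, the calls of Klf6, Klf4 and Klf2 against neg were lost. The other 12 genes, Egr2, Egr3, Nr4a1, Nr4a2, Nr4a3 and Myc among them, passed in no contrast with neg in limma. Of all tested genes, 1.04% were higher and 0.149% lower in sub, 2.55% and 2.15% in low, and 2.44% and 2.25% in high against neg. The median log2 difference of the 15 was 0.17 in low and 1.15 in high against neg.

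Feedback regulators can switch the response off again, though not every gene of the list used here is known mainly for that role. Of 24 tested, 2 were higher (Trib1, Dusp5) and 1 lower (Ppp1r15a) in low against neg, and 3 were higher in high against neg (Trib1, Btg2, Nfkbiz), beside the shares of all tested genes given above for these contrasts (2.55% higher and 2.15% lower, and 2.44% higher). For sub against neg there were 0 calls in limma, edgeR and DESeq2, with 4 genes at an unadjusted p under 0.05. Trib1, a pseudokinase gene, rose from 264, 652 and 1489 in neg to 5453 to 8368 in high, by 3.35 ± 0.57 (limma, adjusted p = 0.00113). Btg2, an antiproliferative gene, rose from 3385 to 4795 in neg to 12331 to 15003 in high, by 1.70 ± 0.29 (adjusted p = 0.00141). These 2 calls passed in all 12 fits that left out a library. The call of Trib1 in low against neg passed in 11 of the 12, Dusp5 in 7, Ppp1r15a in 1, and Nfkbiz in high against neg in 1. Without a variance trend all of these calls were lost. In high against neg, Trib1 was also lost in the fit of 2 populations, and Btg2 in DESeq2 and in limma on 10 libraries. Dusp1, the phosphatase gene that inactivates MAP kinases, stood at 10001, 4401 and 4126 in neg and at 3785, 2214 and 4655 in high, and Zfp36, which encodes a protein that destabilises ATTTA-bearing mRNAs, at 4633 to 6257 in neg and 8357 to 12308 in high; neither passed. Dusp1 and Zfp36 were picked here for their roles after their values were seen.

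Of 10 secreted or signalling targets, 7 passed the filter, and 2 of these (Ccn1, Hbegf) were higher in low and in high against neg, where 2.55% and 2.44% of all tested genes were higher. The list summed to 0.0728 ± 0.0102% (SD, n = 3) of the normalised counts in neg and 0.331 ± 0.021% in high, a rise carried by Ccn1 and Hbegf. Ccn2, a relative of Ccn1 named after its values were seen, stood at 3522, 2278 and 1850 in neg, 4072, 4974 and 3627 in sub, 1679, 0 and 108 in low, and 1280, 632 and 766 in high. Its low and high libraries lay below neg and sub, and it passed in no contrast (limma, low against neg, adjusted p = 0.0674). Areg and Il6 were at 0 in all 12 libraries. Ccn1, the matricellular gene also called Cyr61, stood at 3495, 1589 and 2750 in neg, 8453, 8307 and 11588 in sub, 11123, 9242 and 16216 in low, and 22781, 23924 and 23267 in high. The high libraries lay above all others and neg below all others. Ccn1 rose by 1.91 ± 0.27 from neg to sub and by 3.23 ± 0.27 from neg to high (limma, adjusted p = 0.00036 and 2.1e-07). Both calls were lost without a variance trend. The call between sub and neg was also lost in the fit of 2 populations, in DESeq2 and in limma on 10 libraries. Hbegf, a ligand of the EGF receptor, rose from 951 to 3089 in neg to 8033 to 13183 in low and 9000 to 13844 in high, by 2.72 ± 0.40 and 2.82 ± 0.40 (adjusted p = 0.00023 and 0.00016). These Hbegf calls were lost without a variance trend and in fits of 2 populations. The calls of Ccn1 and Hbegf between high and sub, 1.32 ± 0.27 and 1.70 ± 0.40, passed in 3 and 1 of the 12 fits that left out a library.

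Of the 19 upstream kinases and factors tested, 1 was called in limma over the 6 contrasts. DESeq2 on 10 libraries called 3 in sub against neg, 4 in low against sub and 3 in high against sub. Over all 16128 tested genes it called 1645, 1499 and 1506 in these contrasts. It called at most 1 of the 19 in each other contrast, and edgeR at most 1 in any. The limma call was for Elk3, an SRF partner, which was at 2516 to 3141 in neg and 0 to 39.1 in low (limma, adjusted p = 0.0265), a call that passed in 3 of the 12 fits; 2.15% of all tested genes were lower in that contrast. Of the 10 heat shock chaperones, another group of stress-induced genes, 1 was higher in low and 2 were lower in high against neg, where 2.55% and 2.25% of all tested genes were. The 10 chaperone genes summed to 1.30 ± 0.35% (SD, n = 3) of the normalised counts in neg, and to 1.38 ± 0.31%, 1.65 ± 0.02% and 1.24 ± 0.12% for sub, low and high. Hspa1b stood at 54145, 30861 and 29481 in neg, 51599, 37338 and 40508 in sub, 40705, 32980 and 37832 in low, and 23702, 21433 and 17185 in high, below all others. Its log2 difference in high was -0.83 ± 0.18 from neg and -1.05 ± 0.18 from sub (limma, adjusted p = 0.00809 and 0.00438), and these calls passed in 0 and 2 of the 12 fits that left out a library. Hspa1a was likewise lower in high than in neg, at 8792 to 11222 against 12826 to 31152 (adjusted p = 0.013, 1 of 12 fits). Hspa1a and Hspa1b are near-identical copies, so the split of reads between them is uncertain. The higher gene was Hsp90aa1 in low against neg, by 0.99 ± 0.20 (adjusted p = 0.00499), which passed in 2 of the 12 fits and was -0.022 under quantile normalisation.

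**Figure D4:**
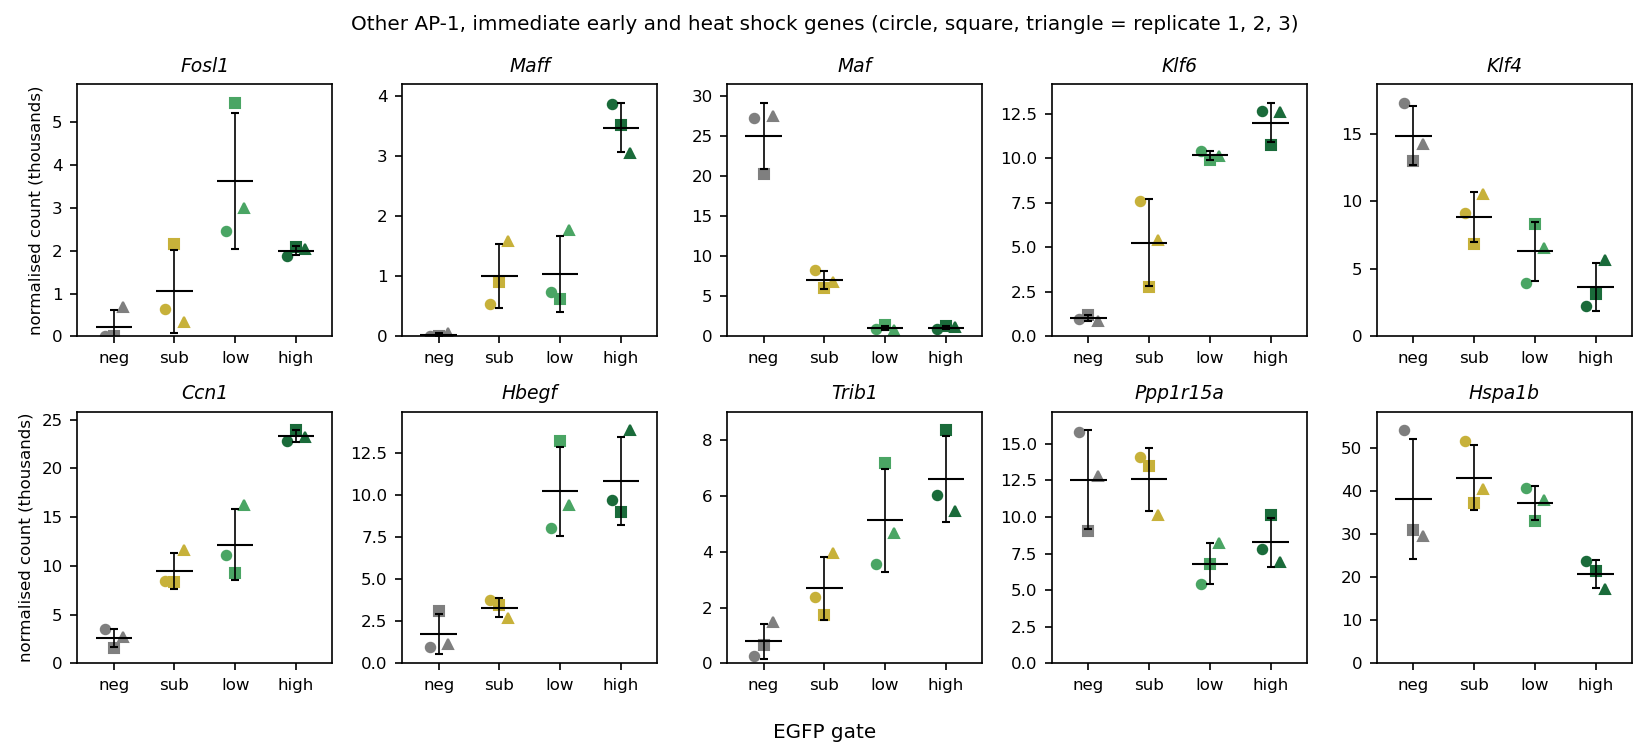
Normalised counts (linear vertical axes from 0, a separate scale per gene, ticks in units as labelled) of genes named from the wider lists in the 12 libraries, by population; points are single libraries, marked by replicate, horizontal lines are means of 3 and error bars are SD. Klf6 and Ccn1 lie lowest in neg, Maf and Klf4 lie highest in neg, and Hspa1b lies lowest in high (17185 to 23702).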

How the data were processed

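The measurements came as 1 table that the authors deposited, of 54227 symbols by 12 libraries, whose unit is a normalised count (a signal that is never negative). Each column was matched to a sample through its description. The submitters' processing notes name Salmon, DESeq2 1.26.0 and the mm10 build; the annotation, filters and strand setting are not given in the sources used here. Within each column all nonzero values (100%) equalled a whole number times the smallest one, to within 0.001 reads, so each deposited signal was read as a count divided by 1 size factor per library, and reads were recovered as those multiples. No unique molecular identifiers are mentioned, so depth limits cover counting error only.

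The 16128 genes with a mean of at least 10 (99.9% of the summed values) were tested on log2(normalised count + 1) with limma 3.58.1 in R 4.3.3 (lmFit, eBayes with a variance trend), with population as the only term, over all 12 libraries. The 6 contrasts and an F test were two-sided, with Benjamini-Hochberg adjustment over all tested genes at 0.05. Log2 differences are differences of mean log values; the pseudocount shrinks those of genes with low values, and a 0 in single libraries can make them larger than the log2 ratio of the means. The alternatives tried were other pseudocounts (0.5 and 5), dropping the filter or raising it to 100, equal totals, quantile normalisation, a replicate block, no variance trend, fits of 2 populations, each library left out, and edgeR 4.0.16 and DESeq2 1.42.0 on recovered reads. These count tests used 10 libraries: in sub 3 and high 2, 1 read was worth 0.997 and 1.01, too close to 1 to tell the steps from raw counts by an automatic check, so they were left out as a choice and not for failed recovery. A limma fit to those 10 libraries was added after the data were seen. The scripts were tested on simulated data.

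The 10 genes, the wider lists and the marker lists were chosen with earlier results of these data known. Named beyond the 10 are, per wider list and contrast, up to 3 genes past the threshold with the largest differences and a mean of at least 100, and the 5 nearest patterns of Fos, Jun, Atf3 and Egr1. Named outside this rule, after their values were seen, are Mafk, Ccn2, Dusp1, Zfp36, Areg, Il6, Egr2, Egr3, Nr4a1, Nr4a2, Nr4a3 and Myc. Single genes of the marker lists were also named outside it: Sox9, Cd3e, Alb, Ahsg, Apob, Ttr, Trf, Hnf4a, Apoa1, Serpina1a, Cps1 and Fgb. Coordinates, exon lengths and 3′ UTRs are from GENCODE M21 (GRCm38), which holds 96.4% of the symbols; promoters are from RefSeq (GRCm38.p6).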

Additional observations from a re-analysis of the deposited data

How the results depend on the processing

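Over the 60 differences of the 10 genes, the 21 calls were of unequal stability. Atf3 in high against neg passed in each of the 24 alternatives. Without a variance trend the counts of the 10 genes called were 0 for sub against neg, low against sub, low against neg and high against sub, 1 for high against neg and 0 in the F test; over all genes that setting called 174, 195, 617, 237 and 692 in these 5 contrasts, against 192, 120, 757, 159 and 757 in the main analysis. Fits of only the 2 populations compared gave 0, 0, 2 and 4 for sub against neg, low against sub, low against neg and high against neg, and 0 for high against sub, where 0, 0, 203, 341 and 8 of all genes were called. DESeq2 on 10 libraries gave 2, 0, 5, 4 and 0 in that order and 3 in the F test. Over all genes it called 1645, 1499, 1875, 1845 and 1506 in the same order of contrasts. Its 2 calls for sub against neg were Atf3 and Ier2, so those of Fos, Fosb and Jun were lost. In limma on the same 10 libraries the counts were 2 for sub against neg and 0 for low against sub and for high against sub. For low against sub the count was 2 with a pseudocount of 5 and with edgeR, and 0 without a filter and under quantile normalisation; for high against sub these last 2 settings gave 1 each. Leaving out a library gave 3 to 4 calls for sub against neg, 0 to 1 for low against sub, 5 to 6 for low against neg, 6 to 7 for high against neg, 1 to 2 for high against sub and 5 to 7 in the F test. Why the counts differ was not tested. The fits on 10 libraries and on 2 populations also used fewer libraries than the main analysis.

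Some differences changed sign. Fosl2 in low against neg was 0.10 under quantile normalisation, Jun in high against low 0.011 and Junb in low against neg -0.070 with equal totals, and Egr1 in low against sub -0.045 under quantile normalisation. Ier3 in high against low was -0.30 in edgeR, -0.32 in DESeq2 and -0.32 in limma on 10 libraries. The chaperone gene Hsp90aa1 in low against neg, 0.99 in the main analysis, was -0.022 under quantile normalisation. With a library left out, 7 differences ranged over both signs: Fosl2 in high against low from -0.38 to 0.092, in high against neg from -0.70 to 0.43 and in low against neg from -0.50 to 0.64, Ier3 and Jun in high against low from -0.32 to 0.70 and from -0.035 to 0.023, Junb in low against neg from -0.32 to 0.29, and Jund in low against sub from -0.080 to 0.16.

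The number of all genes called moved as well. DESeq2 called 1645 for sub against neg, 1499 for low against sub, 678 for high against low, 1875 for low against neg, 1845 for high against neg and 1506 for high against sub, where limma called 192, 120, 0, 757, 757 and 159. EdgeR called 271 for low against sub, 269 for high against sub and 74 for high against low.

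Replicate numbers are shared between populations, as are the codes in the column names that go with them. The labels do not say what the numbers or codes stand for. Over all tested genes, deviations of same-numbered libraries from their population means correlated at -0.02 to 0.03 over 18 pairs. Those of differently numbered ones correlated at -0.04 to 0.02 over 36, and the numbers were not treated as pairs in the main analysis. Correlations over all genes cannot show whether single genes share a replicate effect. Egr1 was highest in replicate 3 in each population. With the replicate block, the 10 genes gave 4 calls for sub against neg, 2 for low against sub, 6 for low against neg, 7 for high against neg and 4 for high against sub, with Jun added in low against sub and in high against sub (adjusted p = 0.0418 and 0.0437). The block also gave Egr1 a limma adjusted p of 0.00087 in low against neg and 0.00065 in high against sub. Without it these were 0.0217 and 0.0249. For Fos in sub against neg it went from 0.00058 to 7.9e-06. Over all genes the block gave fewer calls in these contrasts (720, 130 and 180, against 757, 159 and 192).

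Fosl2, Jund, Ier2 and Ier3 carried standard errors of 0.37 to 1.01, and differences of 1.76 in Ier2 (sub against neg) and -1.90 in Ier3 (low against sub) did not pass in limma; Ier2 in sub against neg passed in DESeq2 on 10 libraries (adjusted p = 0.0217).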
